A study of Mus musculus with 15 samples.

Results

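The comparison described here set the colon of saline-treated mice at day 100 (D100) against the same organ at day 48 (D48) of a colitis-associated cancer model. Its members were the 3 D100 and the 3 D48 libraries of the 15 in the series, chosen by the day in the sample descriptions, and all genes were examined. The mice were male C57BL/6J. An age of 6 to 10 weeks is given alike for all libraries, and it cannot be the age at sampling at D100. Per the shared protocol, each received 10 mg/kg azoxymethane (AOM), a colon carcinogen, on day 0, and then 2.5% dextran sulfate sodium (DSS) in drinking water on days 7 to 11, 28 to 32 and 49 to 53. Saline was injected into the peritoneum on the DSS days, as the placebo for the inhibitor given to another group. Both groups therefore share AOM, DSS and saline, and no library of either was untreated. By that protocol D48 falls between the second and the third DSS period and D100 falls after the third. In the titles, cycle 1 stands for D48 and cycle 2 for D100, which does not follow from these days. Time since AOM, age at sampling, the number of DSS periods and time since the last period cannot be told apart in this comparison. The labels give no statement that each library came from its own animal. The p-values therefore set the difference between the days against the spread between libraries, which may not be that between animals. That spread was estimated over all 15 libraries. Within each group the libraries differed by more than counting noise, with a chi-square per gene of 34.1 to 68.9 between D48 libraries and 10.1 to 17.2 between D100 libraries.

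DSS damages the epithelial barrier of the colon, and bacteria then meet the mucosa and draw in neutrophils and monocytes. Repair involves a cover of regenerating epithelium, deposition of matrix by fibroblasts and growth of vessels, after which goblet cells, which secrete mucus, and absorptive colonocytes are replaced from crypt stem cells. Repeated rounds after AOM lead to tumours, in which mutations that activate Wnt signalling are common.

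Total counts were 14948499, 15830387 and 16452308 in the D48 libraries and 14232174, 15830242 and 13845917 in the D100 libraries. Levels are given as CPM, counts scaled to a common library size after TMM normalization, in the order of replicates 1, 2 and 3. Where no day is named, D48 values stand before D100 values. The colon genes Cdx2 (105, 51.1 and 53.9 CPM at D48, 107, 168 and 156 at D100) and Lypd8 (9168, 8710 and 8594 against 6306, 5973 and 6493 CPM) were present in all 6 libraries. Genes of other tissues stood out in some of them. The summed level of 45 exocrine pancreas genes was 508, 63730 and 15820 CPM at D48 and 426, 411 and 429 CPM at D100. D48 replicates 2 and 3 were thus high, and in replicate 2 these genes took 6.04% of the counts. A list of 17 B cell and lymphoid follicle genes summed to 424, 188 and 1380 CPM at D48 and 315, 226 and 289.9 CPM at D100, with D48 replicate 3 above the other 5. Squamous epithelium genes summed to 245, 370.4 and 209.9 CPM at D48 and 1250, 159 and 188 CPM at D100, with D100 replicate 1 above the other 5. The part of these differences in the results was tested only as far as leaving libraries out shows it.

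**Figure D1:**
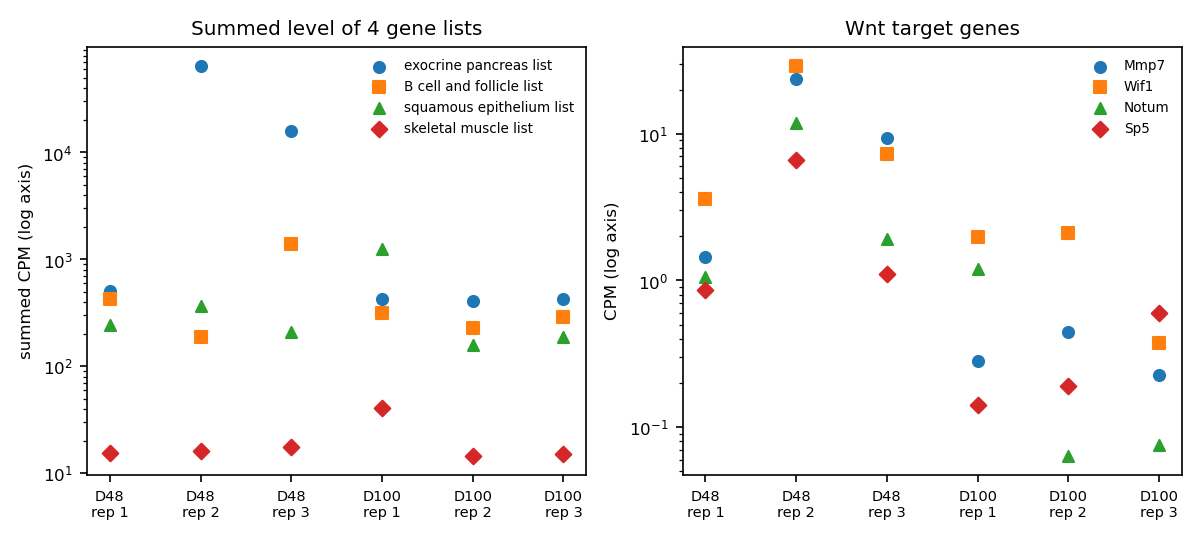
Left, summed CPM (log axis) of the exocrine pancreas, B cell and follicle, squamous epithelium and skeletal muscle lists in each of the 6 libraries. Right, CPM (log axis) of the Wnt target genes Mmp7, Wif1, Notum and Sp5. Pancreas genes are high in D48 replicates 2 and 3, follicle genes in D48 replicate 3, squamous genes in D100 replicate 1, and the 4 Wnt targets in D48 replicate 2.

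Of 18038 genes tested, 1298 were higher at D100 than at D48 and 1155 were lower (edgeR quasi-likelihood test, Benjamini-Hochberg adjusted p below 0.05), which is 7.2% and 6.4% of all genes tested and 13.6% together. The median log2 fold change of all genes tested was -0.01. In 5880 of the genes tested (32.6%), called or not, the D100 and D48 libraries did not overlap. A lack of overlap, given below for single genes, was therefore common. Among the called genes the rises were smaller, with a median log2 fold change of 0.52 against -0.66 for the falls. Of the higher genes 199, and of the lower genes 311, differed by 1 or more in log2. Of the genes called lower, 23 belonged to the exocrine pancreas list or had its pattern over the libraries, and 1132 did not. Leaving out each of the 6 libraries in turn kept 524 of the higher and 415 of the lower calls in every such fit. With D48 replicate 1 as the only D48 library, all 1298 higher genes and 1146 of the 1155 lower genes kept their direction. The genes had been called with this library and the same D100 libraries, so their direction here is no independent check.

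**Figure D2:**
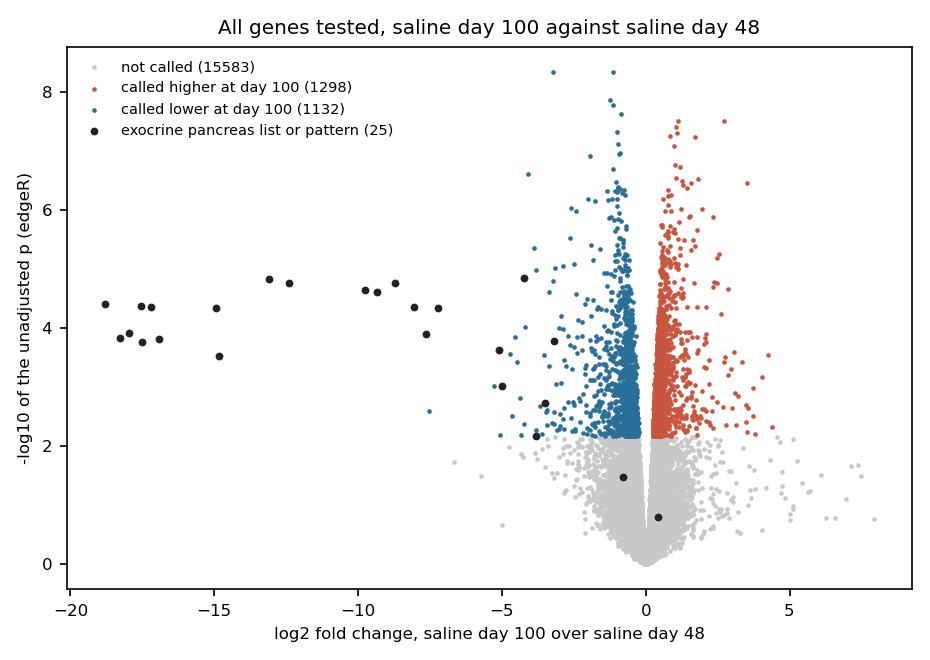
Each point is 1 of 18038 genes, placed by its log2 fold change (D100 over D48) and by -log10 of its unadjusted p. The 25 tested genes of the exocrine pancreas list or pattern are marked on their own, 23 of them called lower, and outside them 1132 genes are called lower and 1298 higher.

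The largest rises, taken among genes averaging 2 CPM or more whose groups did not overlap, included many genes of the epithelium. Tmigd1 (chr11:76902159-76916587, GRCm38), an adhesion protein of mature intestinal epithelium, was at 1.59, 1.47 and 2.21 CPM at D48 and 17.2, 18.5 and 25.6 at D100, a log2 fold change of 3.53 ± 0.418 (SE) with an adjusted p of 0.000231. Fabp2 (chr3:122895072-122899506), the intestinal fatty acid binding protein, rose from 12.4, 10.4 and 10.1 to 45.5, 96.9 and 74.5 CPM (log2 fold change 2.72 ± 0.269, adjusted p = 7.92e-05). In both genes the lowest D100 library was several times the highest D48 library. Mptx1, a pentraxin of the mucosa, was among the abundant genes and rose from 1158, 3068 and 479 to 7644, 11440 and 9583 CPM (2.61 ± 0.477, adjusted p = 0.00312). The drug-metabolising genes Cyp2c69 (1.39, 0.666 and 0.406 against 5.30, 4.62 and 4.37 CPM, adjusted p = 0.000904) and Ces1c (0.463, 3.73 and 0.755 against 11.2, 12.4 and 8.05 CPM, adjusted p = 0.0248) also rose. H2-T3, a non-classical MHC class I gene of intestinal epithelium, stood at 0.926, 0.866 and 0.929 CPM at D48 and at 1.48, 6.79 and 10.5 at D100 (adjusted p = 0.00754), with D100 replicate 1 nearest to the D48 libraries. Abca12, a lipid transporter known from skin, was low, at 0.132, 0.0666 and 0.581 against 0.918, 4.17 and 6.40 CPM (adjusted p = 0.0466). Kirrel3os rose from 0.331, 1.27 and 0.116 to 2.05, 5.96 and 6.32 CPM (adjusted p = 0.00683), and because its transcript lies opposite Kirrel3 and the use of strand in counting is not known, reads of the pair cannot be told apart. Abca12 lost its call without any single library but D100 replicate 1 (adjusted p = 0.0608 to 0.147), and Ces1c without any single library but D48 replicate 2 and D100 replicate 3 (adjusted p = 0.0536 to 0.0897).

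Another 3 of the largest rises shared a pattern within D48. Retnlb (chr16:48816856-48818892), a secreted antibacterial protein of goblet cells, was at 35.2, 347 and 14.1 CPM at D48 and 917, 1598 and 1141 CPM at D100 (3.21 ± 0.826, adjusted p = 0.0187). Ang4 (chr14:51763878-51773590), an antimicrobial ribonuclease with close copies, was at 129, 883 and 84.5 against 2227, 3306 and 2515 CPM (2.88 ± 0.673, adjusted p = 0.0113). Pla2g4c, a cytosolic phospholipase A2, was at 1.52, 152 and 2.03 against 376, 1009 and 404 CPM (adjusted p = 0.045). In all 3 genes D48 replicate 2 lay well above D48 replicates 1 and 3 and still below every D100 library. The same order held for Reg4 (325, 1044 and 292 against 2212, 1764 and 1598 CPM, adjusted p = 0.0209) and Itln1 (2.85, 34.1 and 6.56 against 41.2, 82.1 and 60.4 CPM, adjusted p = 0.0346). Without D48 replicate 2 the log2 fold change of Retnlb was 5.63 and that of Pla2g4c 8.37. Leaving out D48 replicate 1 or D100 replicate 2 ended the call of Retnlb (adjusted p = 0.0592 and 0.0574), whereas Ang4 passed in all 6 fits. The call was lost for Pla2g4c without any single library but D48 replicate 2 (adjusted p = 0.0616 to 0.133). Reg4 did not pass without D48 replicate 1 or 3 or D100 replicate 1 (adjusted p = 0.0612 to 0.0785), nor Itln1 without any single library but D48 replicate 2 and D100 replicate 1 (adjusted p = 0.0783 to 0.117).

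The 12 largest falls included 5 genes of acute inflammation or myeloid cells, Clec4e, Saa3, Acod1, S100a8 and S100a9. Saa3 (chr7:46711998-46715700), an acute-phase protein made by macrophages and epithelium, went from 16.9, 15.7 and 28.2 CPM at D48 to 0.918, 1.09 and 1.58 at D100 (-4.08 ± 0.471, adjusted p = 0.000212). Clec4e, a receptor of myeloid cells for microbial and damage-derived lipids, was at 7.21, 2.60 and 3.83 CPM at D48 and at 0.353, 0 and 0.226 at D100 (adjusted p = 0.005). Acod1, which makes itaconate in activated macrophages, fell from 7.61, 2.53 and 4.88 to 0.636, 0.0641 and 0.602 CPM (adjusted p = 0.00735). S100a8 and S100a9, the subunits of neutrophil calprotectin, fell from 5.23, 4.87 and 8.65 to 1.41, 0.0641 and 0.226 CPM and from 10.8, 11.1 and 15.1 to 3.46, 0.192 and 0.376 CPM (adjusted p = 0.0276 and 0.0275), with D100 replicate 1 the highest of the D100 libraries. Their calls were lost without any single library but D48 replicate 2 and D100 replicate 1 (adjusted p = 0.0538 to 0.108) for S100a8 and without any single library but D48 replicate 2 and D100 replicate 1 (adjusted p = 0.052 to 0.107) for S100a9. Mmp10 (chr9:7502352-7510240), a stromelysin, fell from 10.9, 13.0 and 14.9 to 1.41, 1.54 and 1.20 CPM (-3.21 ± 0.523, adjusted p = 0.00152). Wfdc18 had the smallest adjusted p of the 12 falls, 4.09e-05, at 16.9, 38.2 and 29.1 CPM against 3.6, 2.44 and 3.01 CPM, and R3hdml went from 3.51, 7.80 and 4.18 to 0.353, 0.321 and 0.828 CPM (adjusted p = 0.00196). Glycam1, a ligand for L-selectin on the venules through which lymphocytes enter lymphoid tissue, was at 0.662, 1.20 and 13.0 CPM at D48 and 0.495, 0.0641 and 0.150 at D100 (adjusted p = 0.0196). Its high D48 value came from replicate 3, the follicle-rich library, and without that library its adjusted p was 0.211. The Glycam1 call was also lost without D100 replicate 2 or 3.

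Itih4, Slc30a2 and Ggt1 were among the 12 largest falls as well, and their D48 levels followed the order of the pancreas genes. Itih4, a plasma protease inhibitor chain, was at 0.529, 10.9 and 3.77 CPM at D48 and at 0.141, 0.256 and 0.150 at D100. Slc30a2, a zinc transporter, was at 1.72, 16.1 and 3.02 against 0.636, 0.192 and 0.0752 CPM, and Ggt1, a gamma-glutamyltransferase, at 2.98, 19.3 and 9.06 against 0.707, 0.769 and 0.602 CPM. All 3 kept their call in each single-library fit. Without D48 replicates 2 and 3 together their log2 fold changes were -1.48, -2.48 and -2.09 (adjusted p = 0.633, 0.243 and 0.0503), in a fit that has 1 D48 library and in which 138 of the 240 genes recomputed one by one changed to not called.

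Genes of neutrophils and acute inflammation were lower at D100 as a group. Of 20 tested members 15 fell and none rose, with a median log2 fold change of -2.27 against -0.01 for all genes. All 25 members of the list, tested or not, summed to 1044, 917 and 826 CPM at D48 and 358, 265 and 381 at D100, without overlap. The same sum was 704, 787 and 558 CPM in Control and 810, 576 and 812 CPM at day 27, so the D100 sums lay below those too. Such a sum follows its most abundant members, and not every member had this order. Saa3 was at 0.219 to 0.450 CPM in Control and higher, at 0.918 to 1.58 CPM, at D100. The count of 15 was 7 without D48 replicate 1 or D100 replicate 2, 9 without D48 replicate 3 and 6 without D100 replicate 3. Lcn2, an iron-chelating antibacterial protein, fell from 11.0, 19 and 17.3 to 3.53, 1.73 and 2.41 CPM (-2.62 ± 0.37, adjusted p = 0.000634). Nos2, the inducible nitric oxide synthase, was at 86.7, 64.7 and 89.8 CPM at D48 and 34.3, 6.54 and 11.7 at D100 (-2.20 ± 0.415, adjusted p = 0.00374), and its highest D100 value was in the squamous library. Csf3r, the receptor for the neutrophil growth factor G-CSF, fell from 27.1, 18.1 and 24.2 to 7.63, 5.32 and 8.43 CPM (adjusted p = 0.00272). Mmp9, the gelatinase that neutrophils carry, went from 9.39, 11.5 and 10.2 to 2.54, 2.44 and 3.24 CPM (adjusted p = 0.00321). The cytokines Il1a, Il1b, Il11 and Tnf fell with log2 fold changes of -3.37, -1.65, -2.88 and -1.75. For Il1b, D48 replicate 1 was far above the rest (46.0, 10.9 and 18.1 CPM against 9.26, 7.95 and 6.62 CPM), and the call was lost without D48 replicate 1 or D100 replicate 2 or 3 (adjusted p = 0.073 to 0.171). The receptors Cxcr2 and Trem1 and the chemokine Cxcl2 fell with log2 fold changes of -2.98, -3.42 and -3.26, from low levels (3.84, 3.46 and 4.41 CPM at D48 for Cxcr2). Tnf (adjusted p = 0.0534 to 0.125) and Trem1 (0.0507 to 0.136) passed in none of the 6 single-library fits. Cxcr2 failed without any single library but D100 replicate 1 (adjusted p = 0.0701 to 0.136), and Cxcl2 without any single library but D48 replicate 2 and 3 (adjusted p = 0.0794 to 0.187). Il1a failed without D100 replicate 3 (adjusted p = 0.0521), and Il11 without any single library but D48 replicate 2 and D100 replicate 1 (adjusted p = 0.0765 to 0.118). Saa3, Lcn2, Csf3r, Mmp9, Nos2 and Saa1 were the 6 of the 15 that passed whichever library was left out. In RNA from whole tissue, fewer cells of a type and less RNA per cell cannot be told apart, here and in all lists below.

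The antimicrobial and lectin genes split, with 5 of 19 tested members higher and 10 lower at D100. The higher count was 2 without D48 replicate 1 and 3 without D48 replicate 3 or D100 replicate 2, and the lower count 6 without D100 replicate 2. The higher ones were Retnlb, Ang4, Itln1 and Reg4, named above, and Sprr2a2, a small proline-rich protein (33.9, 34.1 and 29.9 against 78.8, 69.0 and 77.0 CPM, adjusted p = 0.0075). On the lower side were Pglyrp1, which binds peptidoglycan, at 197, 274 and 279 against 137, 141 and 146 CPM (adjusted p = 0.00116). Lypd8, which keeps flagellated bacteria off the epithelium, was at 9168, 8710 and 8594 against 6306, 5973 and 6493 CPM (adjusted p = 0.00331). The hydrogen peroxide-producing oxidase Duox2 and its maturation factor Duoxa2 fell from 668, 659.5 and 508 to 377, 194 and 343 CPM and from 89.8, 94.4 and 66.1 to 42.9, 18.7 and 30.4 CPM (adjusted p = 0.0171 and 0.00646). Lyz1, the Paneth cell lysozyme, was at 16.4, 79.0 and 50.4 CPM at D48 and 9.96, 8.08 and 10.7 at D100 (adjusted p = 0.00356). Lyz1 and Reg3b (2.78, 127 and 24.3 against 0, 0.449 and 7.30 CPM, adjusted p = 0.0486) were highest in D48 replicate 2 and next in D48 replicate 3, the order of the pancreas genes. The call of Reg3b was lost without any single library but D48 replicate 1 and D100 replicate 3 (adjusted p = 0.0599 to 0.3), that of Duox2 without D48 replicate 1 or D100 replicate 2 (adjusted p = 0.0509 to 0.0723), and that of Lyz1 was kept in each single-library fit.

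Other immune lists moved less. Among 20 macrophage and dendritic cell genes 4 were lower: Cd68 (31.4, 29.7 and 32.8 against 17.2, 14.2 and 23.1 CPM, adjusted p = 0.00712), Lyz2 (log2 fold change -0.83) and the complement genes C1qa and C1qb (-0.61 and -0.55). The count of 4 was 2 without D48 replicate 1 or D100 replicate 1 and 1 without D48 replicate 3 or D100 replicate 2. The call of Cd68 alone held in all 6 single-library fits. Lyz2 failed without D48 replicate 3 or D100 replicate 2 (adjusted p = 0.0518 to 0.0574), C1qa without any single library but D48 replicate 2 and D100 replicate 3 (adjusted p = 0.073 to 0.112) and C1qb without any single library but D48 replicate 2 and D100 replicate 3 (adjusted p = 0.0591 to 0.101). Of 20 T cell genes 1 was called lower and none higher, with a median log2 fold change of -0.81. The median was -0.1 without D48 replicate 3, the follicle-rich library, and -1.05 without D48 replicate 2, where 4 were called. The T cell receptor subunit Cd3d was at 3.24, 3.33 and 11.2 against 2.19, 1.92 and 2.18 CPM and did not pass (adjusted p = 0.0572). None of 11 cytotoxic lymphocyte genes was called by edgeR (1 at an unadjusted p below 0.05, and 0 by DESeq2).

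B cell and MHC class II calls changed with the libraries in the fit, the follicle-rich D48 library among them. Of 17 B cell and follicle genes 5 were lower at D100 and none higher, with a median log2 fold change of -1.39, and of 9 MHC class II genes 3 were lower, with a median of -0.78. Cxcr5, the follicle homing receptor, was at 13.2, 4.0 and 38.8 against 6.64, 3.91 and 5.19 CPM (adjusted p = 0.0374). H2-Ab1, a class II chain, was at 491, 420.2 and 895 against 353, 314 and 366 CPM (adjusted p = 0.0268). D48 replicate 3 was the highest library for both genes, and D48 replicate 2 was within the D100 range for Cxcr5. Without D48 replicate 3, 0 of the 17 and 0 of the 9 were called. Without D48 replicate 2, which had the lowest follicle sum, 16 of 17 and 9 of 9 were called lower. Leaving out D100 replicate 1 left 1 of the 17 and 0 of the 9 called. Leaving out D100 replicate 2 or 3 left 0 of each, as did a fit of the 2 groups alone. Cxcr5 and H2-Ab1 lost their calls without D48 replicate 3 and without each D100 library. Among plasma cell genes 3 of 17 fell: Ighg1 (48.7, 83.2 and 453 against 35.1, 44.2 and 15.9 CPM), Ighg2b (240, 365 and 991 against 100.1, 228 and 132) and Igkc (2720, 2339 and 3766 against 1113, 1920 and 1948), with adjusted p of 0.0314, 0.0127 and 0.0396. Without D48 replicate 3 none of the 3 was called (adjusted p = 0.305, 0.0744 and 0.154). Ighg1 also failed without each D100 library, Ighg2b without D100 replicate 1 or 3, and Igkc without any single library but D48 replicate 2. Igha, the heavy chain of mucosal IgA, was at 8978, 5760 and 6973 against 4166, 6049 and 6120 CPM and did not pass (adjusted p = 0.294).

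Matrix genes fell together and closely between replicates. Of 20 fibroblast and extracellular matrix genes 15 were lower at D100 and none higher, with a median log2 fold change of -0.52, against 6.4% lower among all genes. Col1a1 (chr11:94936224-94953042), a chain of type I collagen, went from 679, 632 and 581 to 286, 277 and 298 CPM (-1.14 ± 0.107, adjusted p = 7.58e-05). Its partner chain Col1a2 went from 777, 741 and 666 to 398, 379.5 and 384 CPM (-0.91 ± 0.0987, adjusted p = 0.000126). Sparc, a matrix glycoprotein that binds collagen, was at 414, 441 and 441 CPM and then 221, 224 and 204 CPM (-1.0 ± 0.102, adjusted p = 8.78e-05). In these genes each group spanned a narrow range and the groups lay far apart. Col4a1 of the basement membrane fell from 594, 588 and 574 to 284, 316 and 301 CPM (adjusted p = 0.000104), Col5a1 from 241, 209.6 and 183 to 117, 103 and 106 CPM (adjusted p = 0.000237) and Col3a1 from 1663, 1575 and 1348 to 882, 851 and 922 CPM (adjusted p = 0.000959). Serpinh1 (chr7:99345376-99353239), the chaperone of procollagen, named here after its values were seen, fell from 259, 298 and 297 to 121, 135 and 105 CPM (-1.24 ± 0.116, adjusted p = 7.58e-05). Not all stromal genes followed: Postn (396, 306 and 332 against 343, 317 and 293 CPM, adjusted p = 0.616) and Dcn (401, 387 and 473 against 359, 288 and 249 CPM, adjusted p = 0.0558) did not pass. Col1a1, Col1a2, Col3a1, Col4a1, Col5a1 and Sparc passed in all 6 single-library fits, and Col1a1 had a log2 fold change of -1.24 without D48 replicates 2 and 3 (adjusted p = 0.00175).

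Matrix-degrading enzymes were also lower, with 9 of 17 tested members of the metalloproteinase list called lower and none higher (median log2 fold change -0.73). The count was 5 without D48 replicate 1. One of the 9, Mmp7, has the pancreas pattern and is described with the Wnt targets. Mmp3, a stromelysin, fell from 18.9, 14.2 and 28.8 to 4.10, 4.49 and 1.58 CPM (-2.60 ± 0.332, adjusted p = 0.000327). Mmp2, the gelatinase of fibroblasts, fell from 91.2, 105 and 86.5 to 52.3, 45.2 and 51.9 CPM (-0.92 ± 0.119, adjusted p = 0.00036). Adamts4, an aggrecanase, was at 28.1, 17.9 and 15.2 against 6.99, 7.88 and 9.03 CPM (adjusted p = 0.0149). Timp1, an inhibitor of these enzymes, was at 6.75, 5.46 and 10.6 against 5.16, 1.99 and 2.63 CPM (adjusted p = 0.0355). The groups did not overlap for Mmp2, Mmp3 or Adamts4, and came close for Timp1. Adamts4 lost its call without D48 replicate 1 or D100 replicate 1 or 2 (adjusted p = 0.0547 to 0.0732), and Timp1 without any single library but D48 replicate 2 and D100 replicate 1 (adjusted p = 0.0601 to 0.158).

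Of 19 endothelial genes 9 were lower and none higher (median log2 fold change -0.54), and the count was 5 without D100 replicate 3. Selp, the P-selectin that slows leukocytes on vessel walls, had nearly equal D48 values, 8.53, 8.33 and 8.42 CPM, and lower D100 values, 3.75, 1.86 and 1.5 CPM (-1.83 ± 0.318, adjusted p = 0.00228). Icam1, another leukocyte adhesion molecule, fell from 32.3, 25.3 and 43.3 to 18.6, 17.4 and 20.0 CPM (adjusted p = 0.00716). Eng, a TGF-beta co-receptor of endothelium, fell from 59.4, 62.3 and 67.5 to 36.5, 44.5 and 40.1 CPM (adjusted p = 0.00287). The junction protein Cdh5 went from 37.0, 42.2 and 45.0 to 28.4, 30.8 and 24.8 CPM (adjusted p = 0.0075). Madcam1, the gut homing ligand on venules, was at 9.72, 5.66 and 13.6 against 3.81, 3.91 and 4.06 CPM, highest in the follicle-rich library. Its adjusted p was 0.129 without that library against 0.0292 with it, and its call was lost without any single library but D48 replicate 2. Smooth muscle genes did not move with the matrix: none of 15 was called by edgeR (2 at an unadjusted p below 0.05, and 1 by DESeq2), their median log2 fold change was 0.14, and Acta2 was at 1154, 1166 and 988 against 1239, 1154 and 913 CPM.

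**Figure D3:**
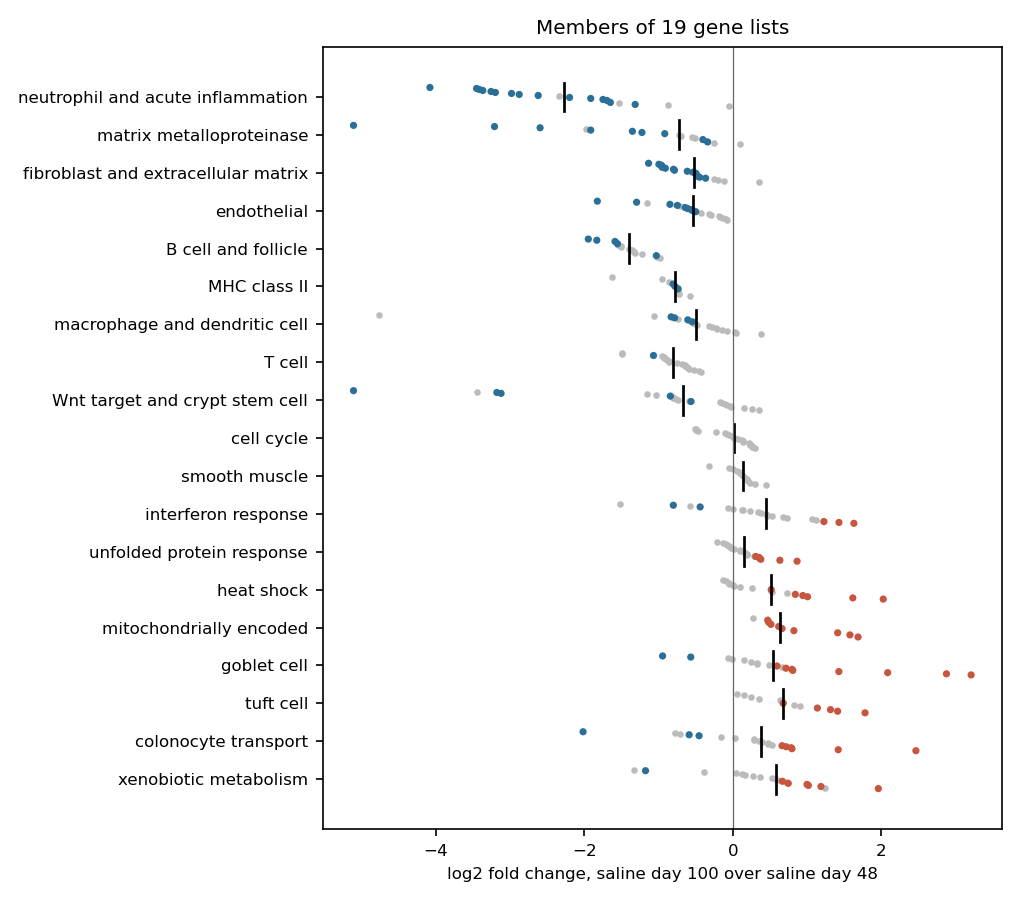
Each point is 1 tested member of 1 of 19 gene lists, placed by its log2 fold change (D100 over D48), red for called higher, blue for called lower and grey for not called, with the list's median as a black line. The neutrophil, metalloproteinase, matrix and endothelial lists have called members only on the left, and the heat shock, mitochondrially encoded and tuft cell lists only on the right.

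Of 18 goblet cell genes 8 were called higher at D100 and 2 lower (median log2 fold change 0.54). The higher count was 5 without D100 replicate 2 and 4 without D100 replicate 3, and 3 with the 2 groups alone in the fit. The list summed to 41320, 52850 and 28090 CPM at D48 and 62430, 81300 and 87970 CPM at D100, without overlap. Clca1 (chr3:145003817-145032776), a secreted protease of the mucus layer, rose from 8767, 14850 and 5980 to 22340, 28230 and 29010 CPM (1.43 ± 0.288, adjusted p = 0.00539). Muc2 (chr7:141690340-141754693), the mucin that forms the gel, was at 12080, 11650 and 8490 CPM at D48 and 12440, 21290 and 22610 at D100 (0.81 ± 0.184, adjusted p = 0.00984). Its D100 replicate 1 lay close to the D48 libraries, and the call was lost without D100 replicate 3 (adjusted p = 0.0554). Agr2, a disulfide isomerase needed for mucin folding, rose from 849, 951 and 789 to 1275, 1563 and 1410 CPM (adjusted p = 0.00477). Tff3, the trefoil peptide of goblet cells, went the other way, from 517, 569 and 616 to 201, 327 and 354 CPM (-0.95 ± 0.198, adjusted p = 0.00643). Zg16, a lectin of the mucus, was at 2006, 2023 and 1945 against 1034, 1157 and 1837 CPM (adjusted p = 0.0492). The goblet cell regulator Spdef did not pass (101, 83.7 and 70.4 against 115, 137 and 107 CPM, adjusted p = 0.0594). Agr2, Clca1, Ang4 and Tff3 kept their calls in all single-library fits, and Zg16 lost its call without any single library but D100 replicate 3 (adjusted p = 0.0819 to 0.175).

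Among 22 mucin glycosylation genes 6 were higher and 1 lower, and the higher count was 3 without D100 replicate 3. St3gal6, a sialyltransferase, rose from 153, 188 and 124 to 279, 349.9 and 306 CPM (1.01 ± 0.14, adjusted p = 0.00056). Galnt5, which starts O-glycan chains, went from 36.9, 32.6 and 28.4 to 50.6, 58.5 and 70.0 CPM (adjusted p = 0.00104). B4galnt3, an N-acetylgalactosaminyltransferase, fell from 169, 148 and 129.8 to 83.5, 66.8 and 64.3 CPM (-1.06 ± 0.129, adjusted p = 0.000237). All 3 differences were without overlap and passed whichever single library was left out.

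Tuft cells are rare chemosensory cells of the epithelium, and 5 of 13 tested members of their list were higher at D100 and none lower (median log2 fold change 0.68). Alox5, which starts leukotriene synthesis, rose from 3.31, 4.07 and 2.09 to 6.99, 8.59 and 7.90 CPM (1.31 ± 0.288, adjusted p = 0.00797). Dclk1, the kinase used as a tuft cell marker, rose from 20.3, 19.5 and 18.1 to 30.7, 31.8 and 30.1 CPM (0.68 ± 0.164, adjusted p = 0.0136). The lineage regulator Pou2f3 was low, at 1.06, 1.000 and 0.465 against 3.6, 3.52 and 1.5 CPM (adjusted p = 0.0323), and the channel Trpm5 did not pass (11.1, 7.80 and 5.63 against 14.2, 14.4 and 14.6 CPM, adjusted p = 0.0541). Alox5 alone passed in all 6 single-library fits. Leaving out D48 replicate 2, D48 replicate 3 or D100 replicate 2 left 2 of the 13 called, and the call of Dclk1 was lost without D48 replicate 3 (adjusted p = 0.0504). Of 16 enteroendocrine genes, Gcg, the precursor of GLP-1, was called higher (0.77) and Pyy, a satiety peptide, lower (-0.47). Pou2f3 failed without any single library but D100 replicate 3 (adjusted p = 0.0579 to 0.122), Gcg without any single library but D48 replicate 1 and D100 replicate 1 (adjusted p = 0.0675 to 0.117) and Pyy without any single library but D48 replicate 2 and D100 replicate 2 (adjusted p = 0.0565 to 0.115).

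Genes of absorption were called in both directions. In the colonocyte transport list 6 of 20 were higher and 3 lower. Slc9a3 (chr13:74121457-74169442), the apical sodium-proton exchanger NHE3, rose from 92.5, 72.6 and 57.8 to 394, 318 and 518 CPM (2.46 ± 0.403, adjusted p = 0.00156). Aqp4, a water channel of the basolateral membrane, rose from 331, 324 and 202 to 775, 686 and 829.9 CPM (1.42 ± 0.171, adjusted p = 0.000237). Slc16a1, the butyrate and lactate transporter MCT1, rose from 254, 190.3 and 211 to 325, 370.1 and 341 CPM (0.66 ± 0.11, adjusted p = 0.00176). The chloride channel Cftr went from 96.5, 73.2 and 67.0 to 120.5, 157 and 130.3 CPM (adjusted p = 0.00852). Scnn1b, a subunit of the epithelial sodium channel, fell instead, from 13.9, 14.1 and 13.8 to 3.67, 2.95 and 3.69 CPM (-2.02 ± 0.251, adjusted p = 0.000259). The chloride-bicarbonate exchanger Slc26a3 was at 504, 276 and 361 against 550.2, 479 and 561 CPM and did not pass (adjusted p = 0.279). Calls of Slc9a3, Aqp4, Slc16a1, Cftr and Scnn1b held in every single-library fit.

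In the list of carbonic anhydrases and differentiated colonocyte genes 6 of 20 were higher and 2 lower. Car2, Car12 and Car13, which interconvert carbon dioxide and bicarbonate, rose with log2 fold changes of 0.75 ± 0.169, 1.23 ± 0.21 and 0.76 ± 0.145 (adjusted p = 0.00895, 0.00207 and 0.00392). Car1, which is typical of the colon, was at 178, 94.0 and 172 against 252, 253 and 218 CPM and did not pass (adjusted p = 0.219). Muc3, a membrane mucin of the brush border, fell from 6894, 6217 and 6173 to 4131, 4150 and 4412 CPM (-0.60 ± 0.132, adjusted p = 0.00796).

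Genes of fatty acid use were called in 1 direction, with 5 of 19 higher and none lower. Pparg (chr6:115360951-115490399), a nuclear receptor for fatty acids, rose from 24.8, 21.9 and 24.0 to 45.3, 52.0 and 50.4 CPM (1.06 ± 0.107, adjusted p = 8.76e-05). Hadhb and Acadl, enzymes of mitochondrial beta-oxidation, rose with log2 fold changes of 0.49 and 0.38, and Cpt1a, which admits fatty acids to mitochondria, did not pass (256, 221 and 199.6 against 229, 281 and 298 CPM, adjusted p = 0.162). On the side of synthesis the calls split, with Idi1 and Hmgcs1 of the cholesterol pathway higher (1.06 and 0.60) and Srebf1, the lipogenic regulator, and Scd2, a desaturase, lower (-0.70 and -0.56). Hmgcs1 failed without any single library but D100 replicate 1 and 2 (adjusted p = 0.0546 to 0.214), Scd2 without D100 replicate 2 (adjusted p = 0.0801) and Acadl without D48 replicate 3 (adjusted p = 0.0502). In the xenobiotic list 6 of 19 were higher and 1 lower. Ugt2b34, a glucuronosyltransferase, rose from 243, 198 and 171 to 391, 409 and 436 CPM (1.02 ± 0.114, adjusted p = 0.000169). Gstm1, a glutathione transferase, went from 162, 108 and 98.1 to 233, 204 and 180.5 CPM (adjusted p = 0.00477). The carboxylesterase Ces2a fell from 154, 87.6 and 95.9 to 49.8, 44.8 and 54.5 CPM (-1.18 ± 0.213, adjusted p = 0.00286).

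Of the mitochondrially encoded genes 9 of 10 tested were higher and none lower (median log2 fold change 0.64). Together the 13 genes of the list summed to 18150, 16820 and 17960 CPM at D48 and 26400, 27150 and 26300 CPM at D100. mt-Co1, a subunit of cytochrome oxidase, rose from 11130, 9530 and 10380 to 15510, 16050 and 15990 CPM (0.62 ± 0.137, adjusted p = 0.00876), and mt-Nd4, a complex I subunit, from 886, 890 and 1022 to 1651, 1658 and 1635 CPM (0.82 ± 0.159, adjusted p = 0.00424). Each group was narrow and the groups lay apart. The counts of mt-Co2 (8.47, 6.66 and 7.14 against 22.0, 24.0 and 20.4 CPM) and mt-Co3 (3.84, 4.07 and 3.48 against 9.89, 11.3 and 9.03) were small for such transcripts, and nuclear copies of mitochondrial genes may share reads, so values of this list are uncertain. Nuclear-encoded respiratory chain genes moved little, with 3 of 22 higher, none lower and a median of 0.18. The count was 5 without D48 replicate 2, 0 without D48 replicate 3 or D100 replicate 2 and 1 without D100 replicate 3. Their 3 calls were Ndufs1, Uqcrc2 and Sdhb (log2 fold changes 0.35, 0.32 and 0.28), and none of them held in all 6 single-library fits (adjusted p in the failing fits 0.0548 to 0.0557 for Ndufs1, 0.0526 to 0.104 for Uqcrc2 and 0.0659 to 0.166 for Sdhb). The share of mitochondrial reads can follow RNA quality, and no measure of it was available to set beside these values.

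Heat shock genes were higher in 6 of 17 cases and lower in none (median log2 fold change 0.52). These chaperones are induced by the factor HSF1 when proteins misfold. Hspa1a (chr17:34969190-34972156) and Hspa1b (chr17:34956436-34959238), near-identical copies of inducible HSP70 between which reads may be split, both rose. Hspa1a went from 31.8, 11.7 and 17.2 to 73.1, 78.6 and 95.3 CPM (2.02 ± 0.416, adjusted p = 0.00589), and Hspa1b from 180.3, 82.2 and 129 to 379, 397 and 422 CPM (adjusted p = 0.0168). Dnaja1 and Dnajb1, HSP70 co-chaperones, rose from 133, 115 and 150.5 to 276, 241 and 283 CPM (1.01 ± 0.188, adjusted p = 0.00359) and from 84.1, 74.7 and 84.5 to 132, 173 and 162 CPM (0.94 ± 0.204, adjusted p = 0.00754). Chordc1, an HSP90 partner, rose from 51.6, 51.0 and 64.6 to 104, 95.1 and 100.2 CPM (adjusted p = 0.00526) and Hspd1, the mitochondrial HSP60, from 189, 233 and 245 to 327, 301 and 326 CPM (adjusted p = 0.0209). Hsph1 was at 162, 161 and 205 against 284, 283 and 311 CPM and did not pass (adjusted p = 0.142). Hspa1a, Dnaja1, Dnajb1 and Chordc1 passed with each library left out. Hspa1b did not pass without D48 replicate 2, D48 replicate 3 or D100 replicate 3 (adjusted p = 0.0633, 0.0535 and 0.0524), and Hspd1 did not without D48 replicate 1, D100 replicate 1 or D100 replicate 3 (0.0795, 0.06 and 0.0682).

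The promoter windows of these genes (RefSeq, GRCm38.p6, 250 bases before to 50 after an annotated start site, 1 or more windows per gene, read on the gene's strand) were searched on both strands for the heat shock element GAANNTTCNNGAA, to which HSF1 binds. It was present in 179 of 27025 genes with such a window (0.662%), in 2 of the 6 heat shock genes called higher and in 2 of the 7 not called that had a window. The 2 are shown because they are the called genes with a match, with the matched bases in capitals.
Chordc1 (plus strand, chr9:18292017-18292316): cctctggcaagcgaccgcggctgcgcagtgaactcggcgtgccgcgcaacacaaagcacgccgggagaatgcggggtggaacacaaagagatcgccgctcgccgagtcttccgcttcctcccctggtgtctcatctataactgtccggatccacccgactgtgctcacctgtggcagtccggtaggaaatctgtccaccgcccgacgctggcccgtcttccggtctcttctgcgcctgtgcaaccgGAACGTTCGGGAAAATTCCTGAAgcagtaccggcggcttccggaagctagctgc
Hspd1 (minus strand, chr1:55087883-55088182): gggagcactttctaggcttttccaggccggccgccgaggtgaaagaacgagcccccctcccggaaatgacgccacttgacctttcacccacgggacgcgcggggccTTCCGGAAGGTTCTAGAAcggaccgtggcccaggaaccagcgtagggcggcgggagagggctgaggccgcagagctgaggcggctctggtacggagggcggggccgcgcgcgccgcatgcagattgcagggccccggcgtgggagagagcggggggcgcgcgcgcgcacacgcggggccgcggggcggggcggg
In Chordc1 the 3 overlapping matches begin 4 bases before the window's start site, and in Hspd1 the 2 overlapping matches begin 144 bases before it. The windows shown for Chordc1 and Hspd1 belong to start sites inside the GENCODE genes, so their matches also lie inside them. The other Hspd1 window, chr1:55088194-55088493, held no match. A match is a description of the letters in the window and was not tested for binding.

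In the unfolded protein response, which answers misfolding in the endoplasmic reticulum, 6 of 21 genes were higher and none lower, with a median log2 fold change of 0.15. The count was 3 without D48 replicate 3, D100 replicate 2 or D100 replicate 3. Dnajb9, a co-chaperone of the reticulum, rose from 46.6, 38.5 and 37.6 to 75.2, 67.4 and 80.7 CPM (0.86 ± 0.154, adjusted p = 0.00268). Ddit3, the transcription factor CHOP, went from 14.2, 16.7 and 15.3 to 22.3, 23.2 and 26.0 CPM (0.63 ± 0.14, adjusted p = 0.00825). The stress sensor Atf6 rose from 88.8, 86.0 and 77.5 to 99.5, 115 and 113 CPM (adjusted p = 0.00866), and Atf4, Pdia3 and Ern2, the sensor specific to mucosal epithelium, had log2 fold changes of 0.35, 0.31 and 0.36. Hspa5 (BiP), the main chaperone of the pathway, was at 1037, 1199 and 1009 against 1324, 980.3 and 1177 CPM, and Creld2 at 95.0, 129 and 107 against 108, 92.2 and 112 CPM, and neither passed (adjusted p = 0.807 and 0.839). Calls of Dnajb9, Ddit3 and Atf6 held in all 6 single-library fits and the other 3 did not. Atf4 failed without any single library but D48 replicate 1 and D100 replicate 1 (adjusted p = 0.0542 to 0.106), Pdia3 without any single library but D48 replicate 2 (adjusted p = 0.0596 to 0.0893) and Ern2 without any single library but D48 replicate 1 and D100 replicate 1 (adjusted p = 0.131 to 0.211).

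Interferon response genes did not move as 1 group. Of 23 tested, 3 were higher and 2 lower, with a median log2 fold change of 0.44. Mx1 (chr16:97447035-97462907), a gene induced by type I and type III interferons, rose from 12.6, 16.4 and 20.1 to 55.6, 43.6 and 52.8 CPM (1.63 ± 0.231, adjusted p = 0.000645). Rsad2 (viperin) rose from 14.4, 17.5 and 14.9 to 42.3, 24.1 and 43.0 CPM (1.23 ± 0.25, adjusted p = 0.00564). Mx2, annotated as a polymorphic pseudogene, was at 2.45, 5.60 and 5.23 against 13.7, 7.31 and 14.8 CPM (adjusted p = 0.042). Ifit1 was at 19.2, 41.6 and 39.4 against 95.2, 46.8 and 90.4 CPM, where D48 and D100 nearly met and the test was not passed (adjusted p = 0.073). On the lower side were Irf1, an early target of interferon gamma, at 161, 179 and 175 against 143, 106 and 130 CPM (adjusted p = 0.041). Gbp2, a guanylate-binding protein, was at 75.3, 103 and 148 against 80.0, 52.3 and 54.6 CPM (adjusted p = 0.0293). The groups overlapped for Gbp2. Mx1 and Rsad2 held in all 6 single-library fits. Irf1 failed without any single library but D100 replicate 1 (adjusted p = 0.0594 to 0.165), Mx2 without any single library but D100 replicate 2 (adjusted p = 0.0573 to 0.139) and Gbp2 without D48 replicate 3 or D100 replicate 2 or 3 (adjusted p = 0.112 to 0.144).

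In the same promoter windows the interferon-stimulated response element, written as GAAANNGAAA, was found in 3.99% of all genes and the gamma-activated site TTCNNNGAA in 9.55%. The first was found in the 1 gene called higher that had a window, Rsad2, in 1 of 2 called lower and in 10 of 14 not called. The second was found in 1 of 2 called lower, Irf1, and in 4 of 14 not called. Rsad2 and Irf1 are shown as the examples that went up and down, with the response element in capitals in the former and the gamma-activated site in the latter.
Rsad2 (minus strand, chr12:26456403-26456702): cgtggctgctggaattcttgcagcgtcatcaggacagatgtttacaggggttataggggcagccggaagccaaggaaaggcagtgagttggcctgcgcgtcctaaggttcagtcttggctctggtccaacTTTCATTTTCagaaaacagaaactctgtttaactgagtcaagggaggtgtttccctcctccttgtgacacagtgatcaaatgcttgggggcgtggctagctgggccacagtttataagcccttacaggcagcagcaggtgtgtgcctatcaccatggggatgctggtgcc
Irf1 (plus strand, chr11:53769764-53770063): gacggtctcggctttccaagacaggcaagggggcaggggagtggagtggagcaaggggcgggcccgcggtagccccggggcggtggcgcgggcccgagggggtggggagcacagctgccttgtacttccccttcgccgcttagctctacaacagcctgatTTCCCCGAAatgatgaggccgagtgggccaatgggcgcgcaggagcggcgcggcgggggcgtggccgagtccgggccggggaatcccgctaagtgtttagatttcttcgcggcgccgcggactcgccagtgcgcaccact
The match begins 120 bases before the window's start site in Rsad2, where the element lies on the opposite strand, and 90 bases before it in Irf1, which has another window with no match.

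Chemokines, which draw in leukocytes, were mostly not called, with 1 of 20 higher and 4 lower, and the lower count was 2 without D48 replicate 1, D48 replicate 3 or D100 replicate 1 and 1 without D100 replicate 2 or D100 replicate 3. Ccl11, the eosinophil attractant eotaxin, rose from 11.0, 10.9 and 9.12 to 16.2, 22.8 and 17.8 CPM (0.87 ± 0.252, adjusted p = 0.0319). Ccl21a, a lymphoid tissue chemokine with close copies, fell from 125, 139 and 268 to 97.6, 104 and 86.5 CPM (-0.88 ± 0.218, adjusted p = 0.0149). Cxcl13, which organises B cell follicles, went from 22.4, 12.8 and 40.8 to 12.7, 13.6 and 10.9 CPM (adjusted p = 0.0387), each highest in D48 replicate 3. Calls were lost for Cxcl13 without any single library but D48 replicate 2 (adjusted p = 0.0598 to 0.241), for Ccl21a without D100 replicate 3 (adjusted p = 0.0666) and for Ccl11 without any single library but D100 replicate 1 (adjusted p = 0.0633 to 0.127).

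Several genes of the circadian clock differed, 4 of 18 higher and 3 lower. The higher count was 2 without D48 replicate 2, D48 replicate 3 or D100 replicate 1, and the lower count 1 without D100 replicate 2. The nuclear receptors Nr1d1 (chr11:98767932-98775333) and Nr1d2, which repress the clock activator Arntl, were higher. Nr1d1 rose from 18.1, 31.4 and 11.4 to 97.4, 54.8 and 55.2 CPM (log2 fold change 1.77 ± 0.378, adjusted p = 0.0071). Nr1d2 rose from 19.9, 29.6 and 19 to 74.8, 59.7 and 50.5 CPM (1.44 ± 0.256, adjusted p = 0.00267), and neither gene's groups overlapped. The output factor Dbp was at 2.58, 2.67 and 2.27 against 15.2, 5.19 and 4.67 CPM (adjusted p = 0.0399), highest in D100 replicate 1. The repressor Cry1 fell from 39.0, 33.2 and 38.1 to 19.6, 16.6 and 27.2 CPM (-0.80 ± 0.193, adjusted p = 0.0134), and Per1 from 82.0, 74.2 and 78.4 to 65.5, 52.3 and 51.5 CPM (adjusted p = 0.0484). Arntl did not pass (75.4, 57.5 and 64.5 against 40.4, 48.2 and 61.1 CPM, adjusted p = 0.235). The calls of Nr1d1 and Nr1d2 held in all 6 single-library fits. Cry1 failed without D100 replicate 2 (adjusted p = 0.0666), Dbp without any single library but D100 replicate 2 and 3 (adjusted p = 0.0865 to 0.235) and Per1 without any single library but D100 replicate 1 (adjusted p = 0.068 to 0.162). The hour of sampling is not in the labels, so a difference in day and in time of day cannot be told apart. The E-box CACGTG, bound by the clock activators, was found in 8.09% of all genes with a window. It was in 0 of the 4 genes called higher, in both called lower that had a window, Cry1 and Per1, and in 3 of 9 not called. Per1 has another window with no match, and its windows lie inside the GENCODE gene.

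Wnt target and crypt stem cell genes were lower in 5 of 22 cases and higher in none, with a median log2 fold change of -0.67. Without D48 replicate 2 the median was -0.16, and without D48 replicates 2 and 3 it was -0.02. The count was 9 without D48 replicate 1 and 3 without D48 replicate 2 or D100 replicate 3. Mmp7 (chr9:7692090-7699585), the metalloproteinase matrilysin and a known Wnt target of intestinal tumours, was at 1.46, 23.5 and 9.35 CPM at D48 and 0.283, 0.449 and 0.226 at D100 (-5.11 ± 1.08, adjusted p = 0.00663). Wif1, a secreted Wnt inhibitor, was at 3.57, 28.7 and 7.26 against 1.98, 2.12 and 0.376 CPM (adjusted p = 0.014). Sp5, a transcription factor induced by Wnt, was at 0.860, 6.60 and 1.10 against 0.141, 0.192 and 0.602 CPM (adjusted p = 0.0367). D48 replicate 2 was the highest library for all 3, and Wif1 did not pass without D48 replicate 2 or D100 replicate 3 (adjusted p = 0.0615 to 0.0974), nor Sp5 without any single library but D48 replicate 1 and 3 (adjusted p = 0.0609 to 0.31). The same library was highest for Notum (1.06, 11.8 and 1.92 against 1.20, 0.0641 and 0.0752 CPM), Nkd1 (17.1, 54.2 and 19.7 against 18.3, 19.9 and 13.7), Prox1 (5.36, 29.2 and 12.4 against 7.49, 7.82 and 5.64) and the stem cell receptor Lgr5 (4.76, 13.9 and 8.54 against 4.52, 4.29 and 6.70), none of which passed (adjusted p = 0.053, 0.105, 0.112 and 0.107). D48 replicate 2 also held the most pancreas transcripts, and Mmp7 has the pancreas pattern over the 15 libraries. Smoc2, a stem cell and stromal gene, and the cyclin Ccnd1 were even between replicates, at 56.4, 61.5 and 57.4 against 37.0, 26.5 and 34.2 CPM and 75.2, 80.8 and 84.2 against 52.0, 56.1 and 54.3 CPM (adjusted p = 0.000433 and 0.000978), and passed in every single-library fit.

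Of 20 genes of regenerating epithelium 4 were lower and none higher, and the count was 2 without D48 replicate 3 or D100 replicate 2 and 1 without D100 replicate 3. Clu, a secreted chaperone that marks revival stem cells, fell from 174, 296 and 353 to 101, 70.5 and 70.1 CPM (-1.77 ± 0.222, adjusted p = 0.000273) and passed in all 6 single-library fits. Il33, an alarmin, had a log2 fold change of -0.96 and failed without D48 replicate 3 or D100 replicate 2 or 3 (adjusted p = 0.102 to 0.132). Clca4b, with close copies, was at 338, 577 and 318 against 249.5, 26.6 and 47.2 CPM (adjusted p = 0.0426), with D100 replicate 1 far above the other 2, and failed without any single library but D100 replicate 1 (adjusted p = 0.0577 to 0.155). None of 22 cell cycle genes was called by edgeR (3 at an unadjusted p below 0.05, and 2 by DESeq2), their median log2 fold change was 0.01, and the proliferation marker Mki67 was at 188, 272 and 242 against 256, 274 and 245 CPM (0.14 ± 0.203, adjusted p = 0.693).

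Apex1 (chr14:50924968-50927139), the base excision repair enzyme whose redox function is the target of the inhibitor tested elsewhere in the series, was at 4.23, 8.06 and 5.58 CPM at D48 and 4.45, 6.41 and 5.95 at D100 (-0.09 ± 0.283, adjusted p = 0.878), with overlapping groups. Of 18 base excision repair genes 1 was higher and 3 lower, and the lower count was 1 without D48 replicate 3 or D100 replicate 2. The thymine glycosylase Tdg rose from 39.4, 41.9 and 38.7 to 58.0, 50.7 and 54.3 CPM (adjusted p = 0.00718). The oxidised base glycosylase Neil1 fell from 23.6, 19 and 25.4 to 12.7, 15.6 and 12.3 CPM (adjusted p = 0.00825), and the scaffold Xrcc1 and the strand break sensor Parp1 had log2 fold changes of -0.44 and -0.40. Tdg and Neil1 held in all 6 single-library fits, while Xrcc1 failed without D48 replicate 3 or D100 replicate 2 (adjusted p = 0.0617 to 0.0753) and Parp1 without D48 replicate 3 or D100 replicate 1 or 2 (adjusted p = 0.0509 to 0.133). Among 19 NRF2 and redox genes 2 were higher, Gclm of glutathione synthesis (54.6, 58.5 and 56.4 against 86.5, 81.0 and 79.6 CPM, adjusted p = 0.000944) and the quinone reductase Nqo1 (0.70). Nqo1 failed without D48 replicate 2 or D100 replicate 1 or 2 (adjusted p = 0.0594 to 0.0702). Another 2 were lower, one being the extracellular peroxidase Gpx3 (88.2, 108 and 118 against 57.4, 69.4 and 61.1 CPM, adjusted p = 0.00224). In the prostaglandin list 3 of 16 were higher and 1 lower, and the higher count was 1 without D48 replicate 3 or D100 replicate 2. Hpgd, which inactivates prostaglandins, rose from 91.6, 87.7 and 86.6 to 126, 143 and 130.4 CPM (0.59 ± 0.112, adjusted p = 0.00401), and the prostaglandin E synthase Ptges fell from 26.0, 24.5 and 20.2 to 17.8, 18.1 and 14.8 CPM (-0.48 ± 0.139, adjusted p = 0.032), a call lost without any single library but D48 replicate 3 (adjusted p = 0.056 to 0.127).

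Few genes of the remaining lists were called. Among 20 immediate early genes 1 was higher and 2 lower, one of the lower being Jun, a subunit of AP-1, at 165, 156 and 142 against 85.1, 88.6 and 94.3 CPM (-0.79 ± 0.16, adjusted p = 0.00551), with a call that held in all 6 single-library fits. In the hypoxia and glycolysis list 1 of 20 was higher and 1 lower. Among 12 mast cell and eosinophil genes the stem cell factor receptor Kit was higher (0.63) and failed without D48 replicate 3 or D100 replicate 2 or 3 (adjusted p = 0.0575 to 0.0615). The histamine-forming enzyme Hdc fell from 8.87, 5.26 and 5.17 to 2.40, 1.22 and 0.978 CPM (-2.06 ± 0.463, adjusted p = 0.00902). Of 17 enteric neuron and glia genes and of 12 adipocyte genes, 1 each was higher and none lower.

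Genes that follow position along the gut gave 2 higher and 2 lower calls of 17. Hoxb13, a homeobox gene of the distal colon, fell from 398, 316 and 284 to 238, 169 and 196 CPM (-0.73 ± 0.134, adjusted p = 0.00328). Hoxa13 rose from 38.1, 36.0 and 30.7 to 52.3, 44.0 and 60.8 CPM (0.58 ± 0.129, adjusted p = 0.0081). Cdx2 rose by 1.04 on the log2 scale (adjusted p = 0.0114), with D100 replicate 1 next to D48 replicate 1, and failed without D48 replicate 3 or D100 replicate 2 (adjusted p = 0.0542 to 0.055). Squamous, skeletal muscle and mesothelium lists had no calls by edgeR (5, 1 and 1 members at an unadjusted p below 0.05, and 1, 1 and 0 by DESeq2). The squamous keratin Krt4 was at 0, 2.67 and 0 CPM at D48 and 100.2, 0 and 0 at D100, so its level came from D100 replicate 1. Sampling position along the colon is not in the labels, and its part in the results was not tested.

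The levels at D48 and D100 can be set beside those of the Control and day 27 (D27) groups, given as ranges with no test. Control libraries are labelled only as wild type (WT). Saa3 was at 0.219 to 0.450 CPM in Control and 0.826 to 1.61 at D27, so the D48 libraries stood above both and the D100 libraries lay within the D27 range. Nos2 was at 2.90 to 6.12 and 19.7 to 29.6 CPM, and Mmp10 at 0.200 to 1.31 and 0.757 to 2.56 CPM. Retnlb was at 0.200 to 0.292 CPM in Control and 760.1 to 1468 at D27, Ang4 at 0.533 to 0.965 and 1763 to 2361, and Mptx1 at 692 to 767 and 6822 to 8716, so that for these 3 genes the low D48 values stood between high values at D27 and D100. Collagen differed from this pattern, with Col1a1 at 461 to 554 CPM in Control and 361 to 394 at D27, and the D100 libraries below all of them. Slc9a3 at D100 was above the Control range of 78.7 to 102 CPM, and Scnn1b at D100 was below its Control range of 24.1 to 35.2 CPM and its D27 range of 6.40 to 8.42 CPM. Hspa1a at D100 stood above 6.65 to 16.7 CPM in Control and 11.3 to 21.6 at D27, and Mx1 above 4.67 to 11.2 and 26.6 to 35.9.

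**Figure D4:**
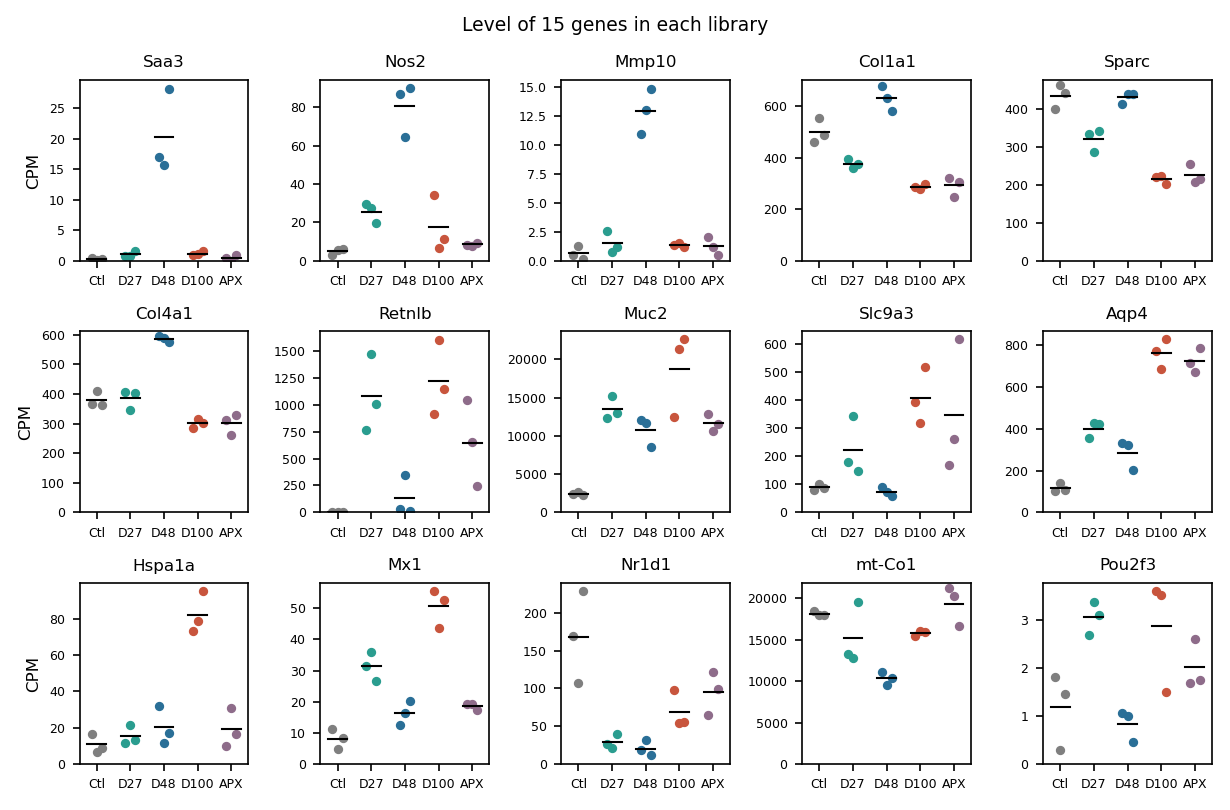
CPM of 15 genes in each of the 15 libraries of the series, 3 points per group with the group mean as a line (Ctl, Control; APX, the APX3330 group; vertical axes start at 0). Saa3, Nos2 and Mmp10 are highest at D48, Col1a1, Sparc and Col4a1 are lower at D100 than at D48 with narrow groups, and Slc9a3, Aqp4, Hspa1a, Mx1 and mt-Co1 are higher at D100 than at D48.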

How the data were processed

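Colon RNA of 15 libraries in 5 groups of 3 was compared. The authors deposited a table of whole-number read counts per gene. Builds GRCm38 and mm10 are named in the submitters' processing notes; for the aligner, the counter and strand, the method is not given in the sources used here. Total counts were 13548661 to 17919613 per library. Of 56859 genes, 23552 had no count. Counts were fitted over all 15 libraries with edgeR 4.0.16 (filterByExpr, TMM, quasi-likelihood test, Benjamini-Hochberg adjustment, limma 3.58.1, R 4.3.3), and genes with adjusted p below 0.05 were called; SE is the log2 fold change divided by the root of F. The fit was tested on simulated data. Named genes were Apex1, the 12 largest non-overlapping rises and falls with a mean of at least 2 CPM outside the pancreas pattern (D48 replicates 2 and 3 each at least 5 times replicate 1 and the other 12 libraries), and members of 44 gene lists with the smallest adjusted p or needed to show the list. Some genes this rule selects are not reported here. Members and lists were chosen with earlier results of these data known. Coordinates are from GENCODE on GRCm38 (17270 of 18038 symbols matched), promoters from RefSeq GRCm38.p6. Alternatives covered filters, scaling, DESeq2 1.42.0, limma-voom, a replicate block, and libraries left out.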

Additional observations from a re-analysis of the deposited data

How the results depend on the processing

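The 1298 higher and 1155 lower genes became 1239 and 1616 with no filter on low counts, 1545 and 1556 by DESeq2, 1048 and 880 with the 2 groups alone, and 1297 and 1162 with pancreas genes removed. Leaving out 1 library gave 705 to 935 higher and 625 to 1076 lower genes. Both counts moved by over 1.5 times without D100 replicate 2 (818 higher, 625 lower) or D100 replicate 3 (705 and 636). Only the higher count moved so far without D48 replicate 3 (825 higher, 864 lower). Without D48 replicates 2 and 3, a fit in which the lone D48 library is assumed to vary like the other groups, 230 and 269 were called. A fit without D48 replicate 3 and D100 replicate 1 together, chosen after seeing the data, gave 602 higher and 685 lower genes. Requiring an absolute log2 fold change of at least 1 left 199 and 311. The cause of these moves was not tested beyond the smaller number of libraries. The labels do not say that replicate numbers pair the samples. Deviations of same-numbered libraries from their group means correlated at -0.0602, -0.0215 and 0.0735, and those of differently numbered libraries at -0.139 to 0.136. With 3 libraries per group these values cannot decide whether the numbers share a batch. With the replicate block 1204 and 1057 genes were called, and among the genes recomputed one by one 24 lost and 2 gained their call. Other scalings and limma-voom kept the counts within 1.5 times (1287 and 1204 with DESeq2 size factors, 1411 and 1261 by limma-voom). No called gene recomputed one by one changed direction in any of these alternatives, which all use the same libraries or part of them. Values under a few CPM rest on few counts.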

Other observations

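Some gene families outside the lists were counted after their values had been seen, so no test is given and the counts are a description. Of 38 collagen chains tested 16 were called lower at D100 and 1, Col25a1, higher, and Col4a2 of the basement membrane fell from 437, 436 and 378 to 231, 224 and 229 CPM (log2 fold change -0.87 ± 0.0844, SE, edgeR adjusted p = 7.92e-05). Of 11 laminin chains 7 were lower and none higher. Among these Lama3, a chain of epithelial laminin, was at 97.2, 118 and 86.4 CPM at D48 and 60.8, 37.7 and 32.8 at D100, with D100 replicate 1 nearest to the D48 libraries (adjusted p = 0.0424), and lost its call without any single library but D100 replicate 1 (adjusted p = 0.0609 to 0.156). Claudins, which set the permeability of tight junctions, were lower in 4 of 13 cases. The pore-forming Cldn2 fell from 187, 177 and 166 to 140.3, 117 and 114 CPM (adjusted p = 0.0212) and Cldn8 from 162, 144 and 148 to 96.1, 68.1 and 98.1 CPM (adjusted p = 0.0081). Cldn2 lost its call without D48 replicate 1 or D100 replicate 2 or 3 (adjusted p = 0.0708 to 0.089). Cldn15 rose from 91.2, 95.6 and 77.5 to 120.5, 186 and 155 CPM (adjusted p = 0.00407).

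Of the 4 tested gasdermin C genes, close copies between which reads may be split, 3 were higher at D100. Gsdmc4 was at 757, 2006 and 489 CPM at D48 and 2473, 3167 and 3520 at D100 (adjusted p = 0.0138), Gsdmc2 at 342, 1469 and 186 and 1672, 2488 and 2563 (adjusted p = 0.0401), and Gsdmc3 at 152, 249.6 and 70.2 and 326, 424 and 478 (adjusted p = 0.0118). Calls were lost without D48 replicate 1 or D100 replicate 3 (adjusted p = 0.0537 to 0.0567) for Gsdmc4, without any single library but D48 replicate 2 (adjusted p = 0.0536 to 0.131) for Gsdmc2 and without D100 replicate 3 (adjusted p = 0.0516) for Gsdmc3. In all of these D48 replicate 2 was the highest D48 library, as it was for Retnlb and Ang4. Of 293 solute carriers 41 were higher and 19 lower, against 7.2% higher and 6.4% lower among all genes tested. The lower count was thus near the share over all genes. Slc5a1, the intestinal glucose transporter, rose from 111, 124 and 113 to 166, 146 and 162 CPM (0.45 ± 0.105, adjusted p = 0.0111). Of 82 cytosolic ribosomal protein genes 1 was called, Rpl37a, which was lower.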
